A study of Mus musculus with 6 samples.

Results

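The genes described here encode the enzymes that make, use and recycle glutathione, remove superoxide and peroxides, modify foreign and oxidized compounds, and supply these reactions with NADPH, together with the transcription factor NRF2 (Nfe2l2) and its inhibitor KEAP1. They were taken from a list of 46 gene symbols, of which 43 had at least 1 probe set of their own on the array, out of 18194 genes measured in all. The other 3 were not measured here: the 5 probe sets of Prdx1 are shared with the predicted gene Gm21399, and no probe set is listed for Prdx6 or G6pdx. RNA came from Wnt1-YL, a cell line grown out of an invasive mammary carcinoma of an FVB/n mouse carrying the MMTV-Wnt1 transgene, in which the mouse mammary tumor virus promoter drives Wnt1. One group of cells was transduced with a pLKO lentivirus expressing a short hairpin RNA against Sca-1 (shSca-1), the cell surface protein encoded by Ly6a, and the control group with a hairpin against luciferase (shLuc). There were 3 arrays in each group. Both groups therefore carried the oncogene, the vector and a hairpin, and both were kept in culture medium with insulin, epidermal growth factor and a low level of serum. A single tumor line is described, and the labels call the replicates biological without saying whether they were separate transductions or cultures, so that p-values measure the spread between these arrays. The comparison asks which of these genes differ when Sca-1 is knocked down.

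Glutathione is a small thiol peptide kept at high concentration in cells. Glutathione transferases attach it to reactive compounds, glutathione peroxidases use it to reduce peroxides, and glutathione reductase restores it with NADPH from the pentose phosphate pathway. Thioredoxin and the peroxiredoxins form a parallel system. Many of these genes are targets of NRF2, which KEAP1 holds at a low level until oxidants or electrophiles release it, and which binds the antioxidant response element in their promoters.

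The promoters of the transferase genes Mgst1, Gstm1, Gstm2 and Gstm5, and of the carboxylesterase gene Ces1g, are shown as examples from the genes with differences described below. Each line holds the 250 bases before a transcription start in RefSeq (GRCm38.p6), 5′ to 3′ on the strand of the gene. Capitals mark the core of the antioxidant response element, TGACNNNGC, found on either strand. The regions are chr6:138140277-138140526 (plus strand) for Mgst1, chr3:108017819-108018068 (minus strand) for Gstm1, chr3:107986421-107986670 (minus strand) for Gstm2, chr3:107895604-107895853 (plus strand) for Gstm5 and chr8:93337210-93337459 (minus strand) for Ces1g.
Mgst1: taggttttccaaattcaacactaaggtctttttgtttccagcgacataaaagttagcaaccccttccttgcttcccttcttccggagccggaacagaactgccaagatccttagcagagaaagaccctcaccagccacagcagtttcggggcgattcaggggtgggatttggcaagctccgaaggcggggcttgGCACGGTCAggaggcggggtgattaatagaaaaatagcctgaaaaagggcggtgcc
Gstm1: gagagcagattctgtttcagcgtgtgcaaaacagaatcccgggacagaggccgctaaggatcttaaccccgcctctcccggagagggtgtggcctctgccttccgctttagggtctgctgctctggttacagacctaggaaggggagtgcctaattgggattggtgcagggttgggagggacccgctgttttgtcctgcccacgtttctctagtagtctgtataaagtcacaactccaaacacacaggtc
Gstm2: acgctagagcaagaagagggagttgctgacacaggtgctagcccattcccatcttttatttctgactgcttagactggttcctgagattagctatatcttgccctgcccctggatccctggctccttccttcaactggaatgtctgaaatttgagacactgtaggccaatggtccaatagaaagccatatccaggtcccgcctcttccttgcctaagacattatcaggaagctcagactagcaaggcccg
Gstm5: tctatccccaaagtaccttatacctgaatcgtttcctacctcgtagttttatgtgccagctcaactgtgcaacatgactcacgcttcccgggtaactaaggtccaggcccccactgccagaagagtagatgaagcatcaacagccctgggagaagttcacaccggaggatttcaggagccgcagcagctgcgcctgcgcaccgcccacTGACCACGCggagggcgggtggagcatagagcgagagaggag
Ces1g: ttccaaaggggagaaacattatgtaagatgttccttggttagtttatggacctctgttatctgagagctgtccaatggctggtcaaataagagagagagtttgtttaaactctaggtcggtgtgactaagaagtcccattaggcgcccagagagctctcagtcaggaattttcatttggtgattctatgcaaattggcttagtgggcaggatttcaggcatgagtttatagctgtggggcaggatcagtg

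Mgst1 held 1 match, TGACCGTGC on the opposite strand, 56 bases before the start, and its other listed start held none. Gstm5 held TGACCACGC 42 bases before the start. No match was found in these windows for Gstm1, at either of its listed starts, or for Gstm2 and Ces1g. Other genes called below are not printed. Among them Mgst2, Mgst3, Gstz1, Gpx4, Sod2, Aox3 and Pgd held no match, Txnrd1 held a match, and Sod3 had no promoter in the table. Of the 46 listed genes, 39 had a promoter in the table, and 9 of these (23.1%) held the motif, against 3112 of 27025 genes with a promoter (11.5%). The other 7 genes with a match were Gsta3, Gclm, Txnrd1, Prdx1, Sod1, Nfe2l2 and G6pdx. Per promoter the shares were 9 of 48 (18.8%) and 10.2% of 32851. A match describes letters in a window, not a bound site or a cause.

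Values are linear intensities from the authors' model of each probe set, and a gene is represented by its probe set with the highest mean log2 intensity over the 6 arrays. Ly6a fell from 7646, 7362 and 2843 on shLuc replicates 1, 2 and 3 to 285, 314 and 306 on the shSca-1 arrays. The median intensity of the arrays was between 37.3 and 40.6, and 35 of the 43 genes had a mean intensity of at least 100. The labelled cell type was checked on marker lists. The summed intensity of 10 basal epithelial markers was between 31350 and 37058 on 5 arrays and 19973 on shLuc replicate 3, whereas that of 15 luminal epithelial markers was between 638 and 742 on the same 5 arrays and 30661 on shLuc replicate 3, where 11 of the 15 were at least 4 times as bright as on any other array. The sums of 8 fibroblast markers (537 to 1230), 8 macrophage and leukocyte markers (356 to 619) and 5 endothelial markers (113 to 139) were lower. Of the 10 basal markers, 2 were called lower and 0 higher in shSca-1 cells by the rule given below. Krt17 had 1583, 1655 and 1454 on the shLuc arrays and 831, 825 and 1171 on the shSca-1 arrays. Krt15 had 58.8, 44.9 and 17.8 against 5.8, 4.06 and 6.25. Acta2 overlapped on 6 arrays and had a log2 fold change of -0.66 without shLuc replicate 3. Krt5 and Krt14 were instead brighter on each shSca-1 array than on any shLuc array. The basal sum does not show these differences. Within the leukocyte list Ptprc was at most 20.5 and Cd3e at most 4.73 on any array, Csf1r and Adgre1 were between 105 and 164 on every array, and Cd68, which many cells express in lysosomes, was 311, 298 and 32.9 on the shLuc arrays and 53.9, 77.6 and 212 on the shSca-1 arrays. Most of the fibroblast sum was Postn on 5 arrays, and Col1a1, Dcn and Thy1 were at most 38.8, 33.8 and 30.3. Over 9010 genes with a mean intensity of at least 100, the log2 intensities of shLuc replicate 3 correlated with those of any other array at 0.823 or less, while every other array had a partner at 0.977 or more. For genes described singly, the log2 fold change is therefore also given without this array where that turned its sign, moved it clearly or changed a call. The part of the luminal signal of that array in these values was not tested.

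A gene was called higher or lower in shSca-1 cells where the limma fit gave both a p under 0.01 without adjustment and more than a 1.5-fold change, the thresholds used in the study. By this rule 2 of the 43 genes were higher, Sod3 and Ces1g, and 4 were lower, Mgst1, Gstm1, Gstm2 and Aox3. Of all genes, 0.528% were called higher and 1.52% lower. The 43 genes were chosen with earlier results of these data known, so a higher share among them can come from that choice. After Benjamini-Hochberg adjustment over all probe sets 0 of the 43 genes passed 0.05 in limma (smallest adjusted p = 0.060), and 0 passed with the methods' t-test. Of all 45037 probe sets, 0 passed in limma on 6 arrays and 4 in the t-test. Ly6a itself did not pass, with a limma adjusted p of 0.051. At an unadjusted p under 0.05 in limma 4 of the 43 genes were higher and 10 lower, against 3.57% and 7.05% of all genes. Without shLuc replicate 3, 4 genes were higher at an adjusted p under 0.05 (Ces1g, Sod3, Sod2 and Pgd) and 6 were lower (Mgst1, Mgst3, Gstm1, Gstm2, Gstm5 and Gpx4), against 1.17% and 2.73% of all genes. By the study's thresholds 4 were higher (Ces1g, Sod3, Pgd and Txnrd1) and 6 lower (Mgst1, Mgst2, Gstm1, Gstm2, Gstz1 and Aox3) without that array, against 1.08% and 2.92% of all genes. The fit without shLuc replicate 3 holds only 2 shLuc arrays, the pair most alike of all (median absolute log2 difference 0.082). Between shSca-1 arrays this difference was 0.128 to 0.180. The p-values of that fit rest in part on the small spread of those 2 shLuc arrays. The 3 shSca-1 values lay above all 3 shLuc values for 7 of the 43 genes and below them for 9, compared with 7.18% and 11.5% of all genes. None of these shares of all genes was matched for brightness. A mean intensity of at least 100 was reached by 35 of the 43 genes but by 9010 of all 18194. In bulk RNA, fewer cells of a type and less RNA per cell cannot be told apart.

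Log2 fold changes are given as shSca-1 minus shLuc. Their median over the 43 genes was -0.11, with 16 above and 27 below 0, and that of all genes was -0.04. With each array centred on its median these were -0.05 and 0.03, and without shLuc replicate 3 they were -0.18 and -0.04.

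**Figure D1:**
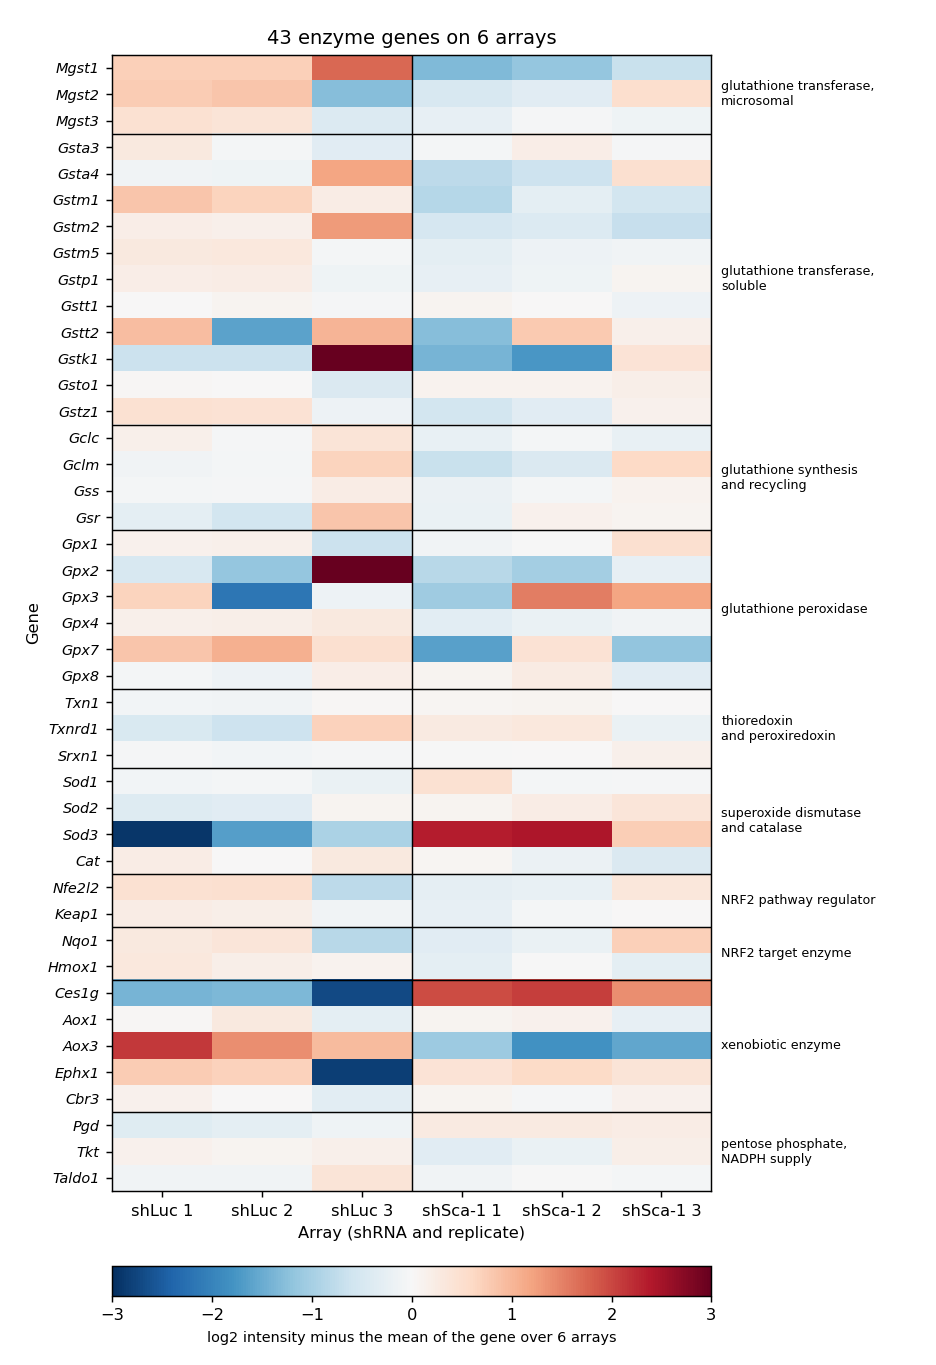
Colours give the log2 intensity of 43 genes (rows, grouped by role) on 6 arrays (columns) minus the mean of the gene, with the colour scale ending at -3 and 3. Ces1g and Sod3 are red (above their mean) on the shSca-1 arrays and blue (below it) on the shLuc arrays, Mgst1 and Aox3 show the reverse, and Gstk1, Gpx2 and Ephx1 differ on shLuc replicate 3.

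The microsomal transferases are membrane proteins that conjugate glutathione and reduce lipid hydroperoxides. Mgst1 had intensities of 3089, 3098 and 6291 on the shLuc arrays and 759, 854 and 1195 on the shSca-1 arrays. The groups did not overlap, and shLuc replicate 3 was the highest. The log2 fold change was -2.09 (standard error 0.31, limma adjusted p = 0.11), a 4.27-fold lower level in shSca-1 cells, and it was -1.75 without shLuc replicate 3 (limma adjusted p = 0.0052). A second, dim probe set of Mgst1, between 7.44 and 23.5 on all arrays, had 0.33.

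Mgst3 had 1738, 1649 and 963 on the shLuc arrays and 1070, 1240 and 1153 on the shSca-1 arrays. Its groups overlapped through shLuc replicate 3, and the log2 fold change was -0.28 (standard error 0.22) with that array and -0.55 without it (limma adjusted p = 0.019). Its other probe set was dim, with means of 7.34 and 21.8, and was higher in shSca-1 cells (limma unadjusted p = 0.0093). Mgst2, which also makes leukotriene C4, had 1975, 2051 and 475 on the shLuc arrays and 825, 915 and 1650 on the shSca-1 arrays. Replicate 3 departed from the other arrays in each group, downward in shLuc and upward in shSca-1 cells, and the log2 fold change of -0.21 had an interval from -1.58 to 1.16. It was -0.90 without shLuc replicate 3 (limma adjusted p = 0.13), past the study's thresholds.

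Among the 11 soluble transferases, 2 were called lower and 0 higher on 6 arrays, both of the mu class, whose genes lie side by side on chromosome 3. Gstm1 had 302, 269 and 198 on the shLuc arrays and 94.4, 138 and 116 on the shSca-1 arrays. All shSca-1 values were below all shLuc values, and the log2 difference was -1.14 (standard error 0.22, limma adjusted p = 0.20) and -1.31 without shLuc replicate 3 (limma adjusted p = 0.013). Its 4 probe sets had log2 fold changes of -1.14, -1.04, -0.62 and -0.11, and the brightest is of the type (x_at) that can also detect related transcripts, so signal from other mu class genes in this value is uncertain.

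Gstm2 had 342, 329 and 719 on the shLuc arrays and 208, 222 and 183 on the shSca-1 arrays. The groups were separate, and shLuc replicate 3 was more than 1.5 times above every other array. Gstm2 fell by 1.09 on the log2 scale (standard error 0.30, limma adjusted p = 0.35) on 6 arrays and by 0.72 without that array (limma adjusted p = 0.025). The call on 6 arrays was lost when any 1 of the shSca-1 arrays was left out, with log2 fold changes of -1.10, -1.15 and -1.01 without replicates 1, 2 and 3. It was also lost with quantile normalization, with floors of 16 or 64, without dim probe sets, with no trend in the variance and in the methods' t-test.

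Gstm5 had 1433, 1452 and 1131 on the shLuc arrays and 951, 1055 and 1091 on the shSca-1 arrays. Its groups did not overlap, although shLuc replicate 3 came close to shSca-1 replicate 3, and the log2 fold change was -0.37 (standard error 0.13) on 6 arrays and -0.48 without shLuc replicate 3 (limma adjusted p = 0.027). All 3 mu class genes of the list were thus lower in shSca-1 cells at an adjusted p under 0.05 when shLuc replicate 3 was left out. The other mu class genes on the array, Gstm3, Gstm4, Gstm6 and Gstm7, were dim to moderate (11.5 to 118) and had log2 fold changes of 0.05, 0.13, 0.07 and 0.12 without that array, with 0 called.

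Of the remaining soluble transferases 0 passed on 6 arrays. Gstp1, the pi class enzyme, had a log2 fold change of -0.19 (interval -0.50 to 0.13), and Gsto1, an omega class enzyme that reduces dehydroascorbate, had 0.26 (interval -0.07 to 0.58) with all 3 shSca-1 values above the shLuc values. Gsto1 was lowest on shLuc replicate 3, at 4003, and its log2 fold change was 0.10 without that array (limma adjusted p = 0.47). Gstz1, which acts in tyrosine breakdown, had -0.49 (interval -1.05 to 0.07), and -0.69 without shLuc replicate 3, past the study's thresholds (limma adjusted p = 0.11). Gsta4, which conjugates the lipid peroxidation product 4-hydroxynonenal, had -0.62 (interval -1.68 to 0.44) on 6 arrays and -0.19 without shLuc replicate 3. Gstt1 had -0.05 (interval -0.42 to 0.33). Gsta3 and Gstt2 were dim on every array, with highest intensities of 18.1 and 8.70, and their log2 fold changes of 0.07 and -0.22 turned to -0.07 and 0.24 without shLuc replicate 3.

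**Figure D2:**
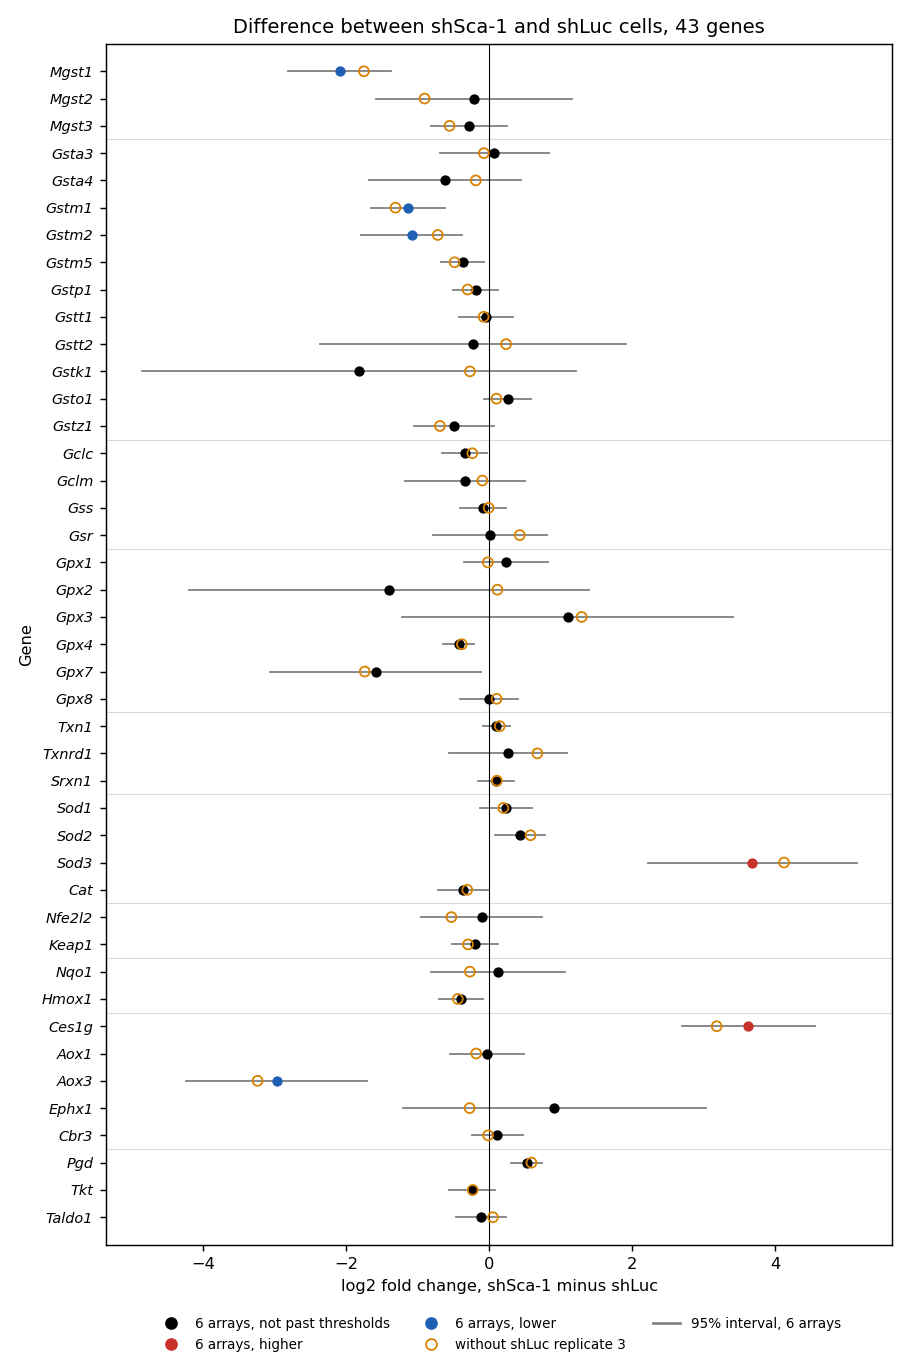
Filled points give the log2 fold change (horizontal axis, positive where shSca-1 was higher) of each of the 43 genes on 6 arrays with its 95% interval, and open circles the value without shLuc replicate 3. Mgst1, Gstm1 and Gstm2 lie to the left of 0 in both, whereas Gstk1 and Gpx2 have intervals that span several log2 units and move close to 0 when shLuc replicate 3 is left out.

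Of the 4 genes for glutathione synthesis and recycling, 0 passed on 6 arrays, and 0 passed either rule without shLuc replicate 3. Gclc, the catalytic subunit of the rate-limiting ligase, had 724, 636 and 846 on the shLuc arrays and 556, 622 and 552 on the shSca-1 arrays. The groups did not overlap, but the difference was small, with a log2 fold change of -0.34 (interval -0.66 to -0.03, limma adjusted p = 0.51). Its modifier subunit Gclm had 765, 788 and 1297 on the shLuc arrays and 515, 604 and 1231 on the shSca-1 arrays, so that replicate 3 was the highest in both groups. Its log2 fold change was -0.34 (interval -1.18 to 0.50) on 6 arrays and -0.10 without shLuc replicate 3. A second, less bright probe set of Gclm had -0.80 and -0.55 (limma adjusted p = 0.63 and 0.58). Gss, which adds the last amino acid, had a log2 fold change of -0.09 (interval -0.41 to 0.23), and Gsr, glutathione reductase, had 0.01 (interval -0.79 to 0.81) with its highest intensity, 954, on shLuc replicate 3, and 0.43 without that array (limma adjusted p = 0.14).

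Among the 6 glutathione peroxidases, Gpx4, which reduces lipid hydroperoxides in membranes, had 3908, 3985 and 4304 on the shLuc arrays and 2796, 3060 and 3245 on the shSca-1 arrays. All shSca-1 values were lower, by a log2 fold change of -0.42 (standard error 0.09, limma adjusted p = 0.25), which is a fold of 1.34 and under the fold threshold. Without shLuc replicate 3 it was -0.38 (limma adjusted p = 0.047), and its second probe set had -0.32 on 6 arrays. Gpx1, the main cytosolic enzyme, had 0.24 (interval -0.35 to 0.82) on 6 arrays and -0.02 without shLuc replicate 3, and Gpx8 had 0.00 (interval -0.41 to 0.41) on 6 arrays and 0.10 without it. Gpx3 and Gpx7 were dim, with highest intensities of 12.9 and 12.7.

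The 3 genes of the thioredoxin system that were measured had positive differences, and 0 passed on 6 arrays. Thioredoxin (Txn1) had a log2 fold change of 0.10 (interval -0.09 to 0.29) and sulfiredoxin (Srxn1), which repairs overoxidized peroxiredoxins, also had 0.10 (interval -0.15 to 0.35). Thioredoxin reductase (Txnrd1) had 795, 713 and 1787 on the shLuc arrays and 1331, 1371 and 949 on the shSca-1 arrays, a log2 fold change of 0.26 (interval -0.57 to 1.08). It was 0.67 without shLuc replicate 3 (limma adjusted p = 0.072), past the study's thresholds.

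The superoxide dismutases convert superoxide to hydrogen peroxide. Sod3, the secreted form, had 9.95, 23.8 and 38.9 on the shLuc arrays and 383, 404 and 125 on the shSca-1 arrays. The shLuc values all lay below the median intensity of their arrays and the shSca-1 values well above it, although shSca-1 replicate 3 was more than 1.5 times below the others of its group. The log2 fold change was 3.68 (standard error 0.62, limma adjusted p = 0.16) on 6 arrays and 4.12 without shLuc replicate 3 (limma adjusted p = 0.013). With intensities under 64 set to 64 it was 2.07. The second probe set of Sod3 did not show the difference, with intensities of 51.8 to 82.0 and a log2 fold change of 0.18.

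Sod2, the mitochondrial enzyme, had 911, 948 and 1257 on the shLuc arrays and 1263, 1384 and 1527 on the shSca-1 arrays, and its highest shLuc value, on replicate 3, nearly reached the lowest shSca-1 value. The log2 fold change was 0.43 (standard error 0.15) on 6 arrays and 0.58 without shLuc replicate 3 (limma adjusted p = 0.023). Its other 3 probe sets had 0.40, 0.09 and 0.07 on 6 arrays. Cytosolic Sod1 had 0.24 (interval -0.12 to 0.60), with 1 high value of 3559 on shSca-1 replicate 1. Catalase (Cat), which breaks down hydrogen peroxide, had -0.37 (interval -0.71 to -0.02, limma adjusted p = 0.52) and -0.35 on its second probe set.

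Nfe2l2, which encodes NRF2, had 3609, 3681 and 1509 on the shLuc arrays and 2190, 2231 and 3302 on the shSca-1 arrays. As with Mgst2, replicate 3 departed from its group in opposite directions, and the log2 fold change was -0.10 (interval -0.95 to 0.74) on 6 arrays and -0.53 without shLuc replicate 3 (limma adjusted p = 0.16). Keap1 had -0.20 (interval -0.52 to 0.12). Of the classical NRF2 targets, Nqo1, a quinone reductase, had 584, 612 and 266 on the shLuc arrays and 375, 416 and 781 on the shSca-1 arrays, with a log2 fold change of 0.12 (interval -0.82 to 1.06) on 6 arrays and -0.27 without shLuc replicate 3. The heme oxygenase gene Hmox1 had 332, 303 and 290 on the shLuc arrays and 220, 264 and 219 on the shSca-1 arrays. Its groups did not overlap, and the log2 fold change was -0.40 (interval -0.71 to -0.09, limma adjusted p = 0.44). Neither of the regulators and neither target passed, with or without shLuc replicate 3.

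The largest rise among the xenobiotic enzymes was that of Ces1g, a carboxylesterase that cleaves ester drugs and lipids. Its intensities were 35.8, 36.5 and 14.4 on the shLuc arrays and 363, 394 and 247 on the shSca-1 arrays, and the groups were far apart. Ces1g thus rose by 3.62 on the log2 scale (standard error 0.39, limma adjusted p = 0.060), a 12.3-fold higher level, and 3.18 without shLuc replicate 3 (limma adjusted p = 0.0013). The shLuc values also lay below the median of their arrays. The size of the fold therefore depends on the floor, and with intensities under 64 set to 64 it was 2.36 (limma adjusted p = 0.043).

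Aox3, an aldehyde oxidase, had 17.2, 10.3 and 7.67 on the shLuc arrays and 1.86, 1.13 and 1.33 on the shSca-1 arrays. The log2 fold change of -2.97 (standard error 0.54, limma adjusted p = 0.18) rests on values close to the lowest the table holds, and with intensities under 16 set to 16 it was -0.03. Aox1, the related oxidase, had -0.03 (interval -0.55 to 0.48), and the carbonyl reductase Cbr3 had 0.12 (interval -0.24 to 0.47), or -0.02 without shLuc replicate 3. The epoxide hydrolase gene Ephx1 had 2518, 2403 and 210 on the shLuc arrays and 1963, 2196 and 1954 on the shSca-1 arrays. Only shLuc replicate 3 was low, and the log2 fold change went from 0.91 (interval -1.21 to 3.03) on 6 arrays to -0.27 without that array (limma adjusted p = 0.12).

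In the pentose phosphate pathway, Pgd, the second NADPH-producing dehydrogenase of its oxidative branch, had 1579, 1674 and 1870 on the shLuc arrays and 2481, 2470 and 2396 on the shSca-1 arrays. The groups were separate and the shSca-1 values nearly equal. Pgd differed by a log2 fold change of 0.52 (standard error 0.09, limma adjusted p = 0.17), a fold of 1.44 that is under the fold threshold, and 0.59 without shLuc replicate 3 (limma adjusted p = 0.0084). All 4 probe sets of Pgd lay between 0.47 and 0.53. Of the non-oxidative branch, transketolase (Tkt) had -0.24 (interval -0.56 to 0.07) and transaldolase (Taldo1) had -0.11 (interval -0.46 to 0.24), or 0.05 without shLuc replicate 3.

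**Figure D3:**
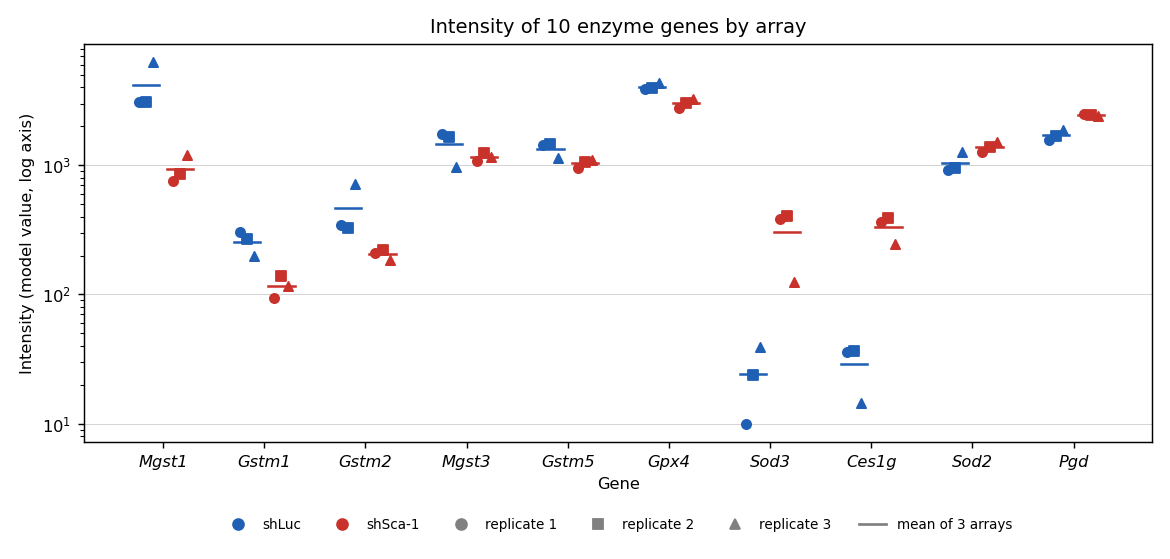
Points give the intensity (log axis) of 10 genes on each array, with 1 marker shape per replicate number and a bar at the mean of 3 arrays. The groups are separate for 9 of the 10 genes, and Mgst3 overlaps through shLuc replicate 3 at 963. The genes shown are those at a limma adjusted p under 0.05 without shLuc replicate 3, a choice that favours separate groups.

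Replicate 3 stood apart in both groups on some of these genes. The comparison was made over genes with a mean intensity of at least 100 in each group, counted without the array examined and without shLuc replicate 3, which kept 32 of the 43. On these, shLuc replicate 3 was more than 1.5 times outside the range of all other arrays for 6 (18.8%), compared with 15% of 8621 genes as bright. Mgst1, Gstm2, Gsta4 and Gsr were above and Mgst2 and Ephx1 below. Without shLuc replicate 3 the log2 fold change had the other sign for 9 of the 43 genes. The share of all genes with such a change was not counted, so this number has no comparison. Gstk1, a kappa class transferase of mitochondria and peroxisomes, was 575 on shLuc replicate 3 and between 10.7 and 47.0 on the other arrays. The gastrointestinal peroxidase Gpx2, like Gstk1 too dim on the other arrays for this count, was 434 on shLuc replicate 3 and between 14.7 and 27.5 on the others. Its log2 fold change was -1.40 on 6 arrays and 0.11 without shLuc replicate 3, and that of Gstk1 was -1.82 and -0.27.

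On shSca-1 replicate 3, 4 of the 32 genes (12.5%) differed more than 1.5-fold from both other shSca-1 arrays, compared with 3.89% of 8587 genes as bright. All 4, Nqo1, Gclm, Gsta4 and Mgst2, were above. Gsta4, for example, had 1205 and 1359 on shSca-1 replicates 1 and 2 and 2908 on replicate 3, and 1925, 1906 and 4719 on the shLuc arrays. Sod3 and Gstk1 were too dim for this count. On shSca-1 replicate 3 Sod3 was below replicates 1 and 2 (125 against 383 and 404) and Gstk1 above them (47.0 against 13.6 and 10.7). The luminal marker sum of shSca-1 replicate 3 was 742 against 677 and 638 on replicates 1 and 2, and its fibroblast sum was 537 against 965 and 1005. Within the fibroblast list Postn was lower on this array (108 against 672 and 749) and Pdgfra higher (292 against 96.2 and 108). Whether these bear on the 4 genes was not tested.

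**Figure D4:**
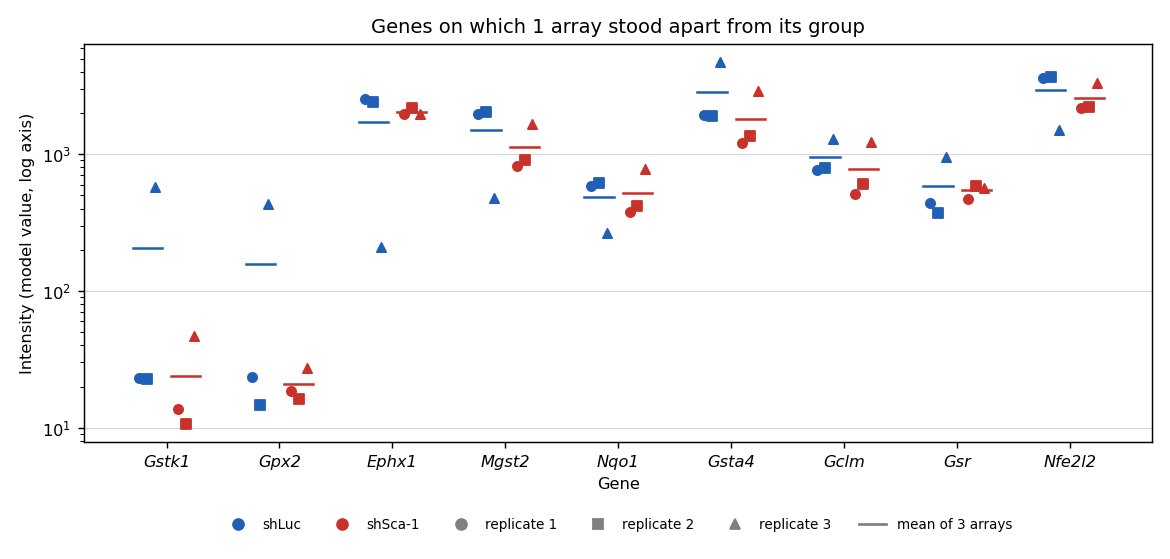
Points give the intensity (log axis) of 9 genes on each array, with replicate 3 as a triangle and a bar at the mean of 3 arrays. On shLuc replicate 3 Gstk1 (575), Gpx2 (434) and Gsr (954) are high and Ephx1 (210) and Mgst2 (475) are low, and on shSca-1 replicate 3 Gsta4, Gclm and Nqo1 are the highest of their group.

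The other genes of the same pathways were taken from 5 lists of 167 genes, of which 150 were measured. On 6 arrays 1 was called higher and 6 lower, against 0.528% and 1.52% of all genes. The median log2 fold change of the 150 was -0.05. By list, 1 of 27 other glutathione genes was higher, 3 of 21 thioredoxin and peroxide genes, 1 of 28 NRF2 pathway genes and 2 of 18 pentose phosphate and NADPH genes were lower, and 0 of 56 other xenobiotic enzymes passed. Without shLuc replicate 3, 3 of the 150 were higher and 10 lower at an adjusted p under 0.05, against 1.17% and 2.73% of all genes. The pathway genes that passed included all 7 called on 6 arrays, with Prdx3 and Me1 added to the higher and Nxn, Cbr4, Cyb5r1 and Cyp4v3 to the lower. The 6 added genes were named after their values were seen.

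Ggct, which breaks down gamma-glutamyl peptides in the glutathione cycle, had 640, 593 and 1023 on the shLuc arrays and 2044, 2214 and 2473 on the shSca-1 arrays. The groups were separate and the log2 fold change was 1.62 (standard error 0.21, limma adjusted p = 0.090), but the mean of its 3 probe sets gave 0.57 and did not pass. Txnip, which binds and inhibits thioredoxin, had 2590, 2614 and 816 on the shLuc arrays and 245, 269 and 600 in shSca-1 cells. The difference was -2.38 on the log2 scale (standard error 0.53, limma adjusted p = 0.26). Selenop, a secreted selenium carrier, had 593, 526 and 157 on the shLuc arrays and 60.9, 88.6 and 102 on the shSca-1 arrays, with -2.16 (standard error 0.50, limma adjusted p = 0.28). In both genes shLuc replicate 3 lay nearest to the shSca-1 arrays. Without it the log2 fold change was -2.94 for Txnip (limma adjusted p = 0.0089) and -2.77 for Selenop (limma adjusted p = 0.0024). The calls of both were lost when shLuc replicate 1 or 2 or shSca-1 replicate 1 or 2 was left out, with log2 fold changes of -2.10, -2.10, -2.14 and -2.21 for Txnip and -1.81, -1.90, -1.95 and -2.22 for Selenop.

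Msrb3, a methionine sulfoxide reductase, had 747, 684 and 525 on the shLuc arrays and 285, 353 and 229 on the shSca-1 arrays, a log2 fold change of -1.18 (standard error 0.20, limma adjusted p = 0.16). Sqstm1, an autophagy receptor that binds KEAP1 and is itself an NRF2 target, had 2355, 2501 and 2597 on the shLuc arrays and 1013, 1148 and 1181 on the shSca-1 arrays. The spread within each group was small, and the log2 fold change was -1.16 (standard error 0.10, limma adjusted p = 0.051). In the pentose phosphate pathway, Pgls, whose product is the substrate of Pgd, had 1684, 1787 and 1727 on the shLuc arrays and 1037, 1095 and 1259 on the shSca-1 arrays (log2 fold change -0.62, standard error 0.10, limma adjusted p = 0.15). Rpia, the ribose phosphate isomerase, had 730, 661 and 1372 on the shLuc arrays and 390, 370 and 466 on the shSca-1 arrays (log2 fold change -1.10, standard error 0.28, limma adjusted p = 0.31). Without shLuc replicate 3 Rpia had -0.77 (limma adjusted p = 0.020). The call of Pgls was lost without shSca-1 replicate 1 (log2 fold change -0.56), and that of Rpia without any 1 of the shSca-1 arrays (-1.07, -1.03 and -1.20 without replicates 1, 2 and 3). The methods' t-test did not call Txnip, Selenop or Rpia, and with quantile normalization or centred arrays Pgls fell under the fold threshold, at -0.57 and -0.56. Pgls and Rpia were thus lower and Pgd higher in the same cells, the last by less than the fold threshold.

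**Figure D5:**
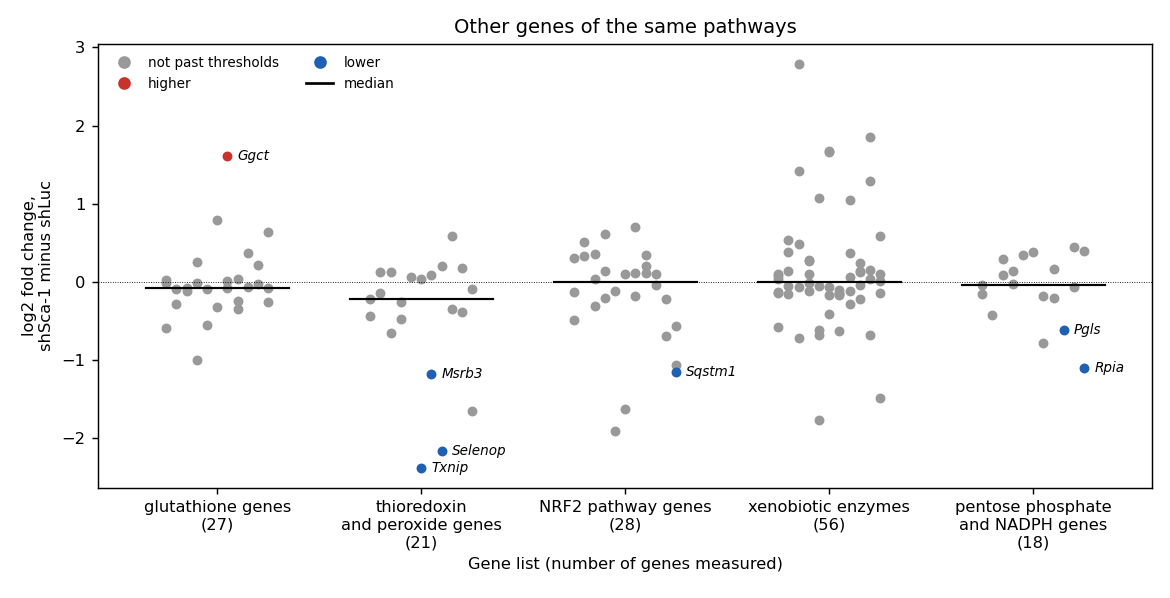
Points give the log2 fold change (vertical axis, positive where shSca-1 was higher) of 150 other pathway genes on 6 arrays in 5 lists, with a bar at the median of each list. Ggct at 1.62 is the gene called higher, and Txnip, Selenop, Rpia, Msrb3, Sqstm1 and Pgls, between -2.38 and -0.62, are those called lower.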

How the data were processed

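The genes and lists described here were chosen with earlier results of these data known. Total RNA from 3 shLuc and 3 shSca-1 samples was hybridized to Affymetrix mouse 430 2.0 arrays. The deposited values are linear intensities that the authors obtained in dChip, which normalized the arrays to an invariant set and fitted its PM-MM model, and 1.12% of them are exactly 1. The dChip version and a genome build are not given in the sources used here. Values were set to at least 1 and put on the log2 scale. After removal of 64 control probe sets, 45037 were fitted by group, with no covariate, in limma (version 3.58.1, R version 4.3.3), whose eBayes step let the prior variance follow the mean level. Benjamini-Hochberg adjustment ran over all 45037. Gene names came from the annotation table of the platform. Folds are differences of group means in log2. The number of arrays limits the precision, and an exact permutation test of 3 against 3 arrays cannot go below p = 0.1. Same-numbered arrays deviated from their group means with correlations of -0.04, -0.02 and -0.03, and replicates were not treated as pairs. Because shLuc replicate 3 weighs on the deviations of all shLuc arrays, these values are not independent and cannot exclude pairing. Genes with values for each array were those called in either of 2 ways, or with the largest change, and others whose role needed them. Alternatives were other normalizations, floors, filters, variance models and tests, averaging the probe sets of a gene, leaving out each array, and a replicate block. The fit was tested on simulated data.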

Additional observations from a re-analysis of the deposited data

How the results depend on the processing

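The precision is limited by 3 arrays in each group, 1 of which, shLuc replicate 3, is unlike the others. When single arrays were left out, the number of the 43 genes called higher by the study's thresholds was between 2 and 4 and the number called lower between 3 and 6. At an adjusted p under 0.05 these ranges were 0 to 4 and 0 to 6, and every such call came without shLuc replicate 3. The 150 other pathway genes gave 1 to 3 higher and 2 to 11 lower. With intensities under 16 or under 64 set to that value, or with dim probe sets left out, 2 of the 43 genes were called lower in place of 4. The floor of 64 and the filter each gave 1 gene higher at an adjusted p under 0.05. Of the other pathway genes, 2 were called higher with no trend in the variance and 0 when the probe sets of each gene were averaged, and 3 were called lower by the methods' t-test. A replicate block gave 2 of the 43 genes higher and 4 lower, 0 at an adjusted p under 0.05, but the genes differed: the call of Gstm2 was lost (limma adjusted p = 0.66) and Gsta4 was called lower. Txnip also lost its call (limma adjusted p = 0.65). Mgst3 reversed to a log2 fold change of 0.61 with the mean of its probe sets. When single arrays were left out, Gpx2 was between -2.33 and 0.11, and only without shLuc replicate 3 was it above 0. For 22 single genes (15 of the 43 and 7 other pathway genes) run under each alternative, 285 values kept their direction and side of the threshold, 32 lost the call, 3 gained it and 2 reversed. The 285 include values of genes that were not called on 6 arrays and stayed uncalled. All 32 losses fell on genes that were called. Outside these 22, further genes of the 43 changed sign without shLuc replicate 3, which in all turned 9 of the 43. Values of genes whose intensities all lay under a floor, such as Gpx3 at 16, could not be fitted. The causes of these changes were not tested.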

Other observations

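Of the carboxylesterase genes other than Ces1g, named after their values were seen, 3 of the 9 measured were nearly lost on 1 array. Ces2e had an intensity of 1.63 on shLuc replicate 3 and between 475 and 527 on the other 5 arrays. Ces2f had 11.1 there and between 177 and 353 elsewhere, and Ces2g had 15.0 there and between 426 and 1002 elsewhere. Ces5a was instead highest there, at 230 against 158 to 197, and Ces1g was lowest there, at 14.4, but dim on all 3 shLuc arrays. The other 5, Ces1d, Ces1e, Ces1f, Ces2a and Ces4a, were at most 41.3 on every array, where a loss is hard to see.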
